A study of Homo sapiens with 12 samples.

Results

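The small-subunit processome genes are 46 genes whose proteins form the particle in which the small ribosomal subunit is first put together. The rule took them by symbol and used no measured value, although the list was drawn up with earlier results of these data known. All 46 were found among the 19447 gene symbols of the count table. Each of the 46 also passed the filter on low counts in every comparison, so that none is missing from the counts below.

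The processome assembles in the nucleolus on the leading end of the ribosomal RNA precursor while RNA polymerase I is still transcribing it. The tUTP (UTP-A) and UTP-B complexes bind first, the U3 snoRNP pairs its small nucleolar RNA with the precursor, and further proteins, helicases, modifying enzymes and a nuclease join before the small-subunit RNA is cleaved free. In leukemia cells that grow fast, such as K562, ribosome production is a large part of what the cell makes, and many of these genes are textbook targets of the transcription factor MYC.

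The 12 libraries of poly(A) RNA fall into 4 groups of 3. The parental line, K562, comes from a human chronic myeloid leukemia and carries the BCR-ABL fusion, and it was left untreated in the K562 group. The K562+L group is the same line given lycorine, an alkaloid of Amaryllidaceae plants, at 6 µM. K562/IM is a derivative that was made resistant to imatinib (IM), the inhibitor of BCR-ABL, by raising the drug in steps, and it served without lycorine as the K562/IM group. The paper describes this line as growing in medium with imatinib and does not say whether the drug was present before sequencing. The line and a continued exposure to imatinib therefore cannot be told apart. All 12 libraries carry K562 as the cell line in their labels. The group labelled K562/IM+L is the resistant line given the same dose of lycorine. The resistant line is 1 derivative of K562, so that the groups with K562/IM show that derivative rather than resistance in general. How long the cells had been treated before RNA was taken is not given in the sources used here. No label ties the 3 libraries of a group to separate cultures, so that p-values measure the spread between these libraries, which may be technical.

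The table gives whole-number counts, with library totals of 75093844 to 107344598. CPM below is a count scaled to a common library total with edgeR's TMM factors over the 12 libraries, and since CPM is a share of the RNA sequenced, fewer cells of a kind and less RNA per cell cannot be told apart. All 11 markers of the K562 line, among them the fetal globins HBG1 and HBG2 and the receptor TFRC, were over 1 CPM in every library. Their summed level was 6533 to 8816 CPM in K562, 4655 to 5249 in K562+L, 3192 to 3423 in K562/IM and 32794 to 45924 in K562/IM+L as labelled. Globins led the last sum, with means of 17029 CPM for HBG2, 11151 for HBZ and 8534 for HBG1. Other markers moved far less: from K562/IM to the labelled group GATA1 went from 196 to 250 CPM and ABL1 from 271 to 328. BCR went from 99.6 to 94.3 CPM there, and it rose from 92.3 in K562 to 187 in K562+L, where the sum was lower. The summed level of 7 lymphocyte markers was 24.3 to 26.0 CPM in K562/IM and at most 3.56 in the other groups, with CD3D leading the sum in K562/IM and the B-cell marker MS4A1 at 0 in every group. The sums of 6 monocyte and granulocyte markers (75.5 to 172 CPM) and of 6 epithelium and fibroblast markers (66.7 to 133) were led by LYZ and EPCAM, with the fibroblast collagen COL1A2 at a mean of 17.1 CPM in K562/IM, and the granulocyte marker ELANE was at 0 in all groups but the labelled one. ABCB1, the drug efflux pump P-gp, was 23.0, 21.9 and 25.8 CPM in K562/IM but 0.706, 0.490 and 1.06 in K562/IM+L as labelled, below every K562 library (1.68, 1.86 and 1.72). Since the marker sum and ABCB1 of those libraries were both far from K562/IM, they are named the labelled libraries throughout, and each direction drawn from them rests on that label. Within groups, replicate 1 of K562 and replicate 3 of the labelled libraries stood apart from their companions along the leading axis of replicate deviations, and replicate 3 of K562 lay at its other end, so that counts are also given without these libraries.

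For 38 of the 46 genes the RefSeq promoter table (GRCh38.p14) held a window of 250 bases before to 50 bases after the transcription start. The E-box CACGTG, a palindrome bound by MYC with MAX and by other basic helix-loop-helix proteins, occurred in 19 of these 38 windows (the other 19 lacked it). It occurred in 7.43% of all 27305 windows of the same length in the table and in 9.85% of the 11138 windows of genes tested here. The stretches below run from 60 bases before to 20 bases after the start, 5′ to 3′ on the gene's strand, with the E-box in capitals. They were picked after the values were seen, to show genes that ended up in different patterns. UTP4 (plus strand, chr16:69132589-69132668), WDR43 (plus, chr2:28894607-28894686), UTP20 (plus, chr12:101280045-101280124) and RRP9 (minus, chr3:51941885-51941964) are members that rose in K562+L and lay far below K562 in the labelled libraries. PWP2 (plus, chr21:44107339-44107418) and FBL (minus, chr19:39846360-39846439) did not rise in K562+L, RCL1 (plus, chr9:4792884-4792963) was higher in the labelled libraries than K562/IM, and HEATR1 (minus, chr1:236604497-236604576) stands for the 19 windows without these letters.
UTP4: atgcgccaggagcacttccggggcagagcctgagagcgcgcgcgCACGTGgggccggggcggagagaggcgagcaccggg
WDR43: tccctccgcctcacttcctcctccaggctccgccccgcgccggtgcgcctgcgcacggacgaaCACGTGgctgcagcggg
UTP20: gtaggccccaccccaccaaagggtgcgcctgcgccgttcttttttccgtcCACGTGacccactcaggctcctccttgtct
RRP9: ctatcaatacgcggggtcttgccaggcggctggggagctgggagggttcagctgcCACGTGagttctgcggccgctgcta
PWP2: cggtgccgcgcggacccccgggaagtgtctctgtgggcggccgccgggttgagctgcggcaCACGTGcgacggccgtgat
FBL: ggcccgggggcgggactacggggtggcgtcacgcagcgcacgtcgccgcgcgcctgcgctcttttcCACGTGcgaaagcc
RCL1: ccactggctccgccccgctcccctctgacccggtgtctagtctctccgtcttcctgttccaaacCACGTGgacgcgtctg
HEATR1: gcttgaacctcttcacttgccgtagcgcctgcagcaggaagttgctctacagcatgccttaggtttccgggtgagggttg
In 17 of the 19 windows the E-box began between 60 bases before and 50 bases after the start, as in every stretch printed here with capitals. A match of letters is a description of the window and not a measured binding site.

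The processome genes as a whole stood highest in K562+L and lowest in the labelled libraries. Their summed level was 6484 ± 151 CPM (SD, n = 3) in K562, 8628 ± 82.7 in K562+L, 4288 ± 23.2 in K562/IM and 2595 ± 45.2 in the labelled libraries, and no library of 1 group reached the range of another. The same order, K562+L over K562 over K562/IM over the labelled libraries, held for the group means of 37 of the 46 genes, and in 31 of them no neighbouring groups overlapped. Of the 13995 genes tested over the 12 libraries, 9.84% had this order of means and 3.14% had it with no neighbouring overlap. PWP2, RRP7A, IMP3, IMP4 and EMG1 had K562 above K562+L, with the rest of the order unchanged. RCL1, DDX49 and BYSL had the labelled libraries above K562/IM, and FBL differed from the common order at both places. Per kilobase of exon, the median member stood at 26.0 CPM per kb in K562 and at 10.1 in the labelled libraries. FBL was the most abundant member per kb in every group, with 231 CPM per kb in K562 and 137 in the labelled libraries, and UTP25 or PWP2 the least.

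**Figure D1:**
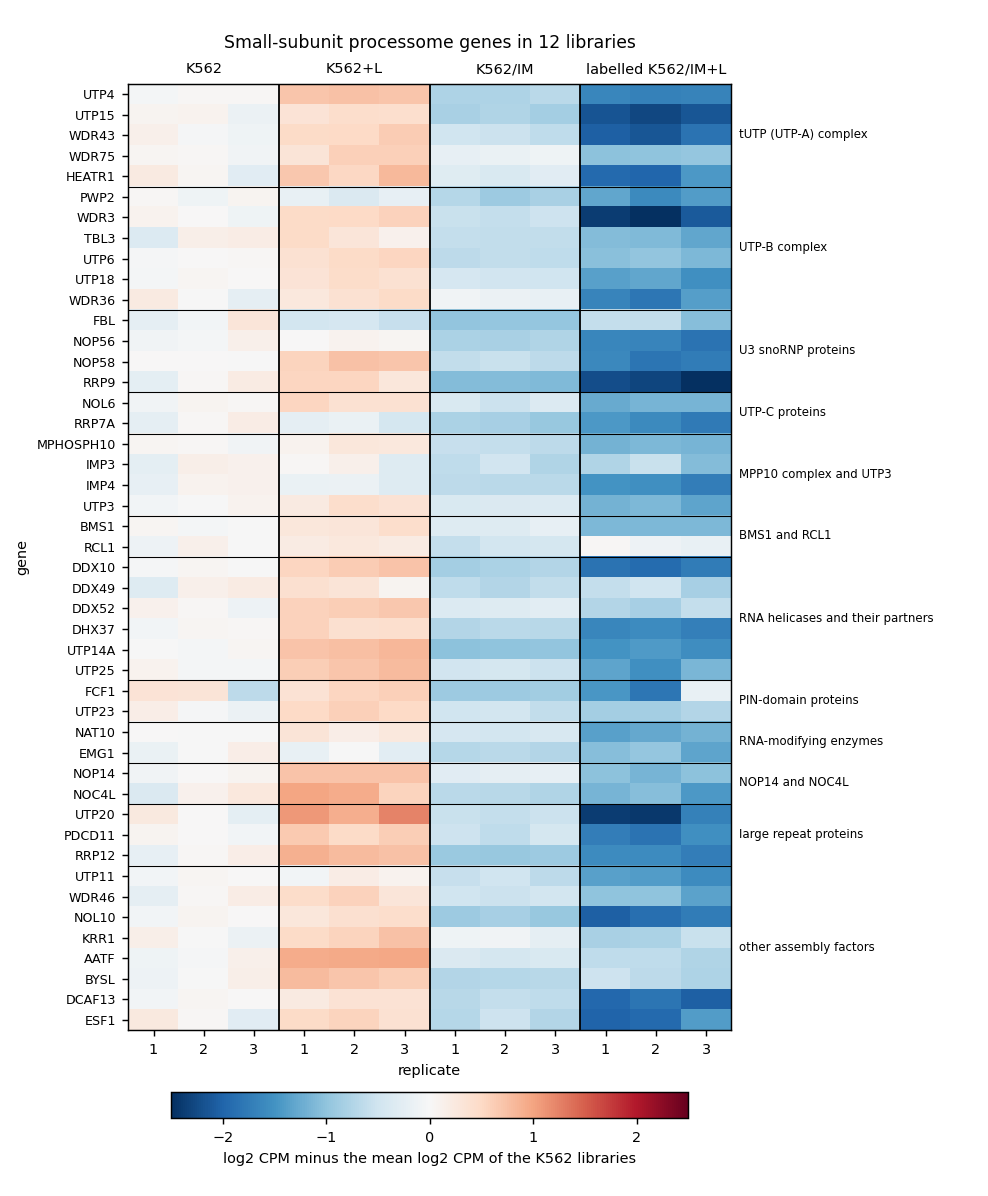
Heat map of log2 CPM of the 46 processome genes (vertical axis, in functional classes) in the 12 libraries (horizontal axis, replicates within groups), each minus the mean log2 CPM of that gene in K562. K562+L is red in most genes, K562/IM is pale blue and the labelled K562/IM+L libraries are dark blue, with FBL, RCL1, BYSL and DDX49 among the paler genes there and FCF1 uneven between replicates.

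Lycorine in the parental line was tested by setting K562+L against K562. Processome genes were mostly higher with lycorine: 33 of the 46 rose, FBL alone fell and 12 did not pass an adjusted p of 0.05 (edgeR, quasi-likelihood, Benjamini-Hochberg over all genes). Of the 12927 genes tested in this comparison, 18.2% were higher and 19.0% were lower, against 71.7% and 2.17% of the processome genes. The rises were small, with a median log2 fold change of 0.45 beside -0.00012 over all genes, and in 38 members the 3 libraries of the groups did not overlap, beside 51.5% of all genes without overlap and 37.3% of all genes called in either direction. UTP20, a large repeat protein of the processome, was the one member to rise by more than 1 on the log2 scale, beside 2.38% of all genes higher and 4.01% lower by that much. Its libraries held 121, 103 and 86.0 CPM in K562 and 216, 192 and 240.3 in K562+L, which is a log2 fold change of 1.06 (SE 0.14, adjusted p = 0.0015). Without replicate 1 of K562 the calls were 33 higher and 3 lower, and without replicate 3 of K562 they were 30 higher and 1 lower. In these fits 5823 of 13131 and 3814 of 13140 genes tested were called in either direction.

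AATF, which joins the processome with NGDN and is also known from the control of cell death, had the smallest p. It held 177, 187 and 208 CPM in K562 and 362, 368 and 371 in K562+L, so that every treated library lay far above the untreated ones. The log2 fold change was 0.94 (SE 0.085, adjusted p = 3.1e-04), a 1.92-fold rise. UTP4, a tUTP protein, went from 264, 277 and 278 CPM to 444, 452 and 441, with a log2 fold change of 0.71 (SE 0.070, adjusted p = 4.8e-04). UTP14A, which activates the helicase DHX37, went from 97.6, 95.1 and 102 CPM to 162, 166 and 174, with a log2 fold change of 0.77 (SE 0.079, adjusted p = 5.8e-04). NOP14, the partner of NOC4L and EMG1, was nearly the same in the 3 treated libraries, with 214, 214 and 213 CPM against 123, 131 and 137 in K562 and a log2 fold change of 0.71 (SE 0.079, adjusted p = 7.7e-04). In all 4 genes the groups were separate by a wide margin.

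FBL encodes fibrillarin, the ribose methyltransferase of the U3 snoRNP and of the other box C/D snoRNPs, and it moved the other way. It stood at 423, 471 and 611 CPM in K562, where the spread was wide, and at 359.9, 372 and 334 in K562+L. All treated libraries lay below all untreated ones, with a log2 fold change of -0.50 (SE 0.13, adjusted p = 0.022). The call was lost when replicate 1 or replicate 3 of K562+L was left out. Its partners in the same particle went apart: NOP58 rose by 0.66 (SE 0.078), RRP9 by 0.45 (SE 0.13), a call lost in 5 of 15 other fits, and NOP56 had 0.04 (SE 0.081, adjusted p = 0.72).

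The second question was how the K562/IM group differs from the K562 group, both without lycorine. In K562/IM, 43 of the 46 processome genes were lower than in K562 and all 46 values were below 0, beside 27.1% of the 13406 genes tested called lower and 30.1% called higher. Only WDR75, WDR36 and KRR1 were not called, with log2 fold changes of -0.16, -0.15 and -0.14. The median was -0.62 beside 0.042 over all genes, and 44 members had no overlap between the groups, beside 66.6% of all genes without overlap and 57.1% called in either direction. Only RRP9 and UTP14A fell by more than 1 on the log2 scale, beside 5.29% of all genes. The number of members called was 44 without replicate 1 of K562 and 46 without replicate 3. In these fits 8834 of 13671 and 7680 of 13677 genes tested were called. The K562/IM group shares its K562 libraries with the comparison above, so that the values of both are set side by side and not correlated.

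UTP14A had the smallest p here, as 48.6, 48.6 and 49.6 CPM for the resistant line stood under 97.6, 95.1 and 102 in K562, which gave -1.01 (SE 0.067, adjusted p = 1.6e-05) on the log2 scale. NOL10, an assembly factor related to yeast Enp2, held 142, 157 and 149.5 CPM in K562 and 79.4, 83.9 and 77.7 in K562/IM. It fell 1.86-fold, with a log2 fold change of -0.90 (SE 0.072, adjusted p = 4.2e-05). DDX10, an RNA helicase that in yeast releases a snoRNA from the precursor, went from 132, 138 and 133 CPM to 75.0, 77.5 and 80.4, with -0.79 (SE 0.067, adjusted p = 5.4e-05). UTP4 went from the K562 values above to 160.2, 160.5 and 171 CPM, with -0.74 (SE 0.067, adjusted p = 7.6e-05). RRP9, the protein that recognises the U3 RNA itself, held 53.8, 64.7 and 73.6 CPM in K562 and 30.0, 29.9 and 29.4 in K562/IM, with -1.10 (SE 0.12, adjusted p = 1.6e-04). For each of these 5 genes the K562/IM libraries were close together and below the lowest K562 library.

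The third question was the effect of lycorine in the resistant line, as labelled. In the labelled libraries 40 processome genes were lower than in K562/IM and RCL1 was higher, beside 33.6% of the 13727 genes tested called lower and 33.2% called higher. The 5 members that did not pass were FBL (0.26), IMP3 (-0.15), DDX49 (0.05), FCF1 (-0.04) and BYSL (0.09). The median log2 fold change was -0.82 beside -0.0069 over all genes, and 12 members fell by more than 1, beside 13.8% of all genes. In 41 members the groups did not overlap, beside 73.4% of all genes without overlap and 66.8% called in either direction. Without replicate 3 of the labelled libraries the calls were 41 lower and 3 higher: FCF1 then fell (log2 fold change -0.69, edgeR adjusted p = 0.0010), while FBL (0.41, adjusted p = 6.1e-05) and BYSL (0.16, adjusted p = 0.048) rose. That fit called 10181 of 13916 genes tested, in either direction. The globin-led marker sum and ABCB1 moved in the same libraries by far more, and their part in the lower processome level was not tested.

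WDR3, a UTP-B protein, had the steepest fall of the members against K562/IM. Its libraries held 135, 131 and 139 CPM in K562/IM and 38.5, 34.3 and 46.2 in the labelled libraries, a 3.34-fold fall with a log2 fold change of -1.74 (SE 0.12, adjusted p = 1.4e-05). UTP15 of the tUTP complex held 55.8, 57.7 and 53.9 CPM and 21.9, 20.2 and 22.0, with -1.36 (SE 0.073, adjusted p = 4.7e-06). WDR43 of the same complex held 127, 123 and 116 CPM and 43.7, 41.0 and 49.7, with -1.42 (SE 0.092, adjusted p = 1.1e-05). DCAF13, the human relative of yeast Sof1, held 105, 111 and 109 CPM and 43.4, 47.8 and 41.0, with -1.28 (SE 0.076, adjusted p = 7.7e-06). In each of these the highest labelled library was below the lowest K562/IM library by more than 2-fold. RCL1, a partner of the GTPase BMS1 that resembles RNA cyclases, was the exception. It held 46.2, 50.9 and 51.2 CPM in K562/IM and 71.0, 64.4 and 61.5 in the labelled libraries, which is a rise of 1.35-fold with a log2 fold change of 0.43 (SE 0.081, adjusted p = 0.0023).

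**Figure D2:**
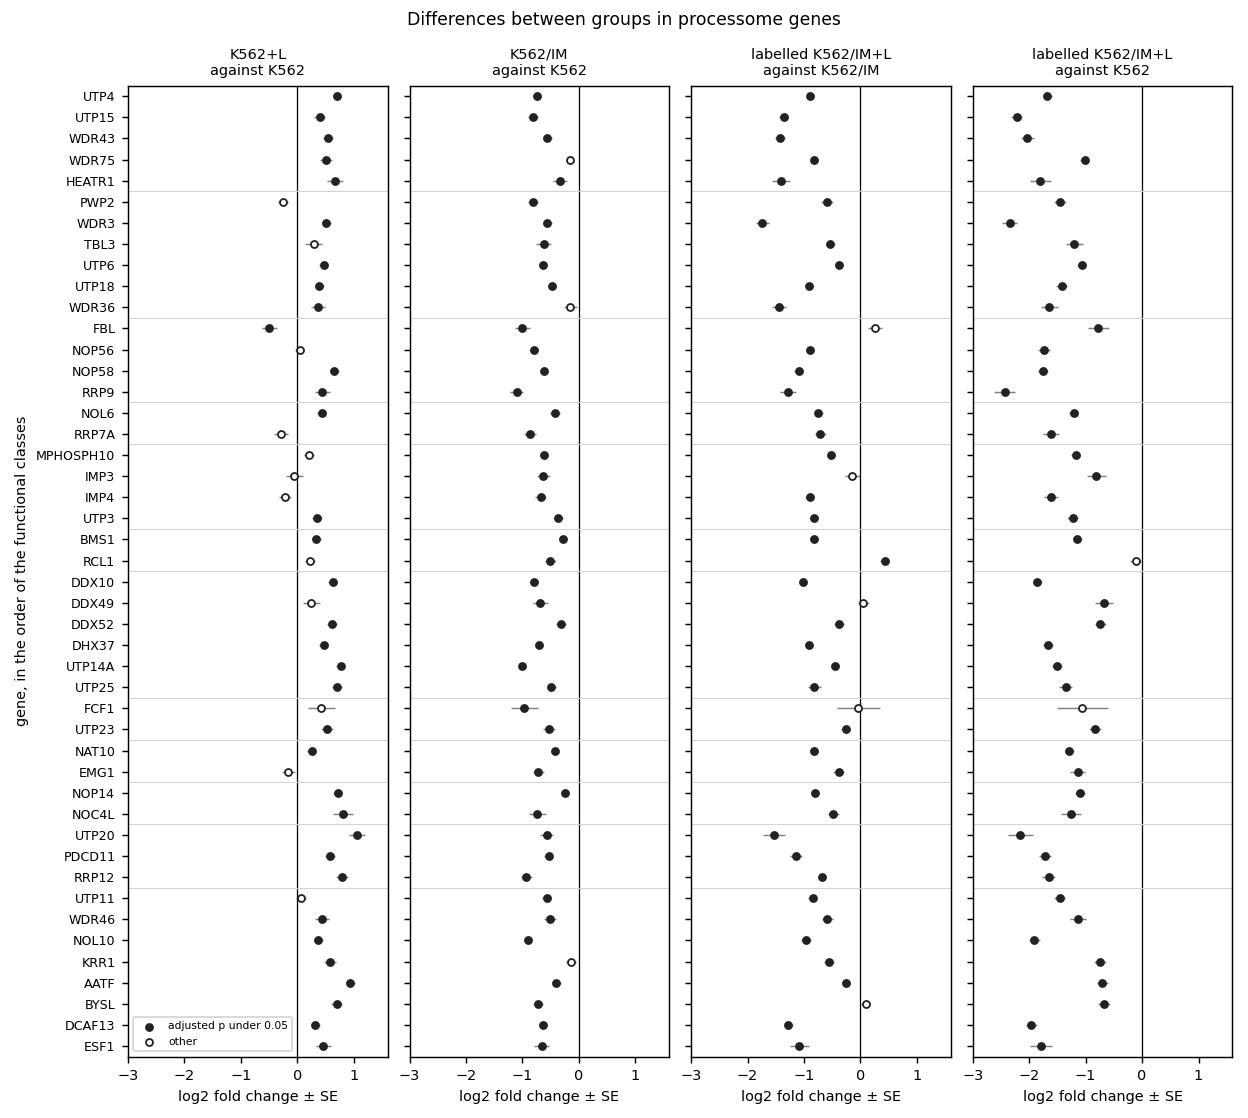
Log2 fold change ± SE (horizontal axis, edgeR's quasi-likelihood fits of 3 against 3 libraries) of the 46 processome genes (vertical axis, in functional order) in 4 comparisons, with filled points for an adjusted p under 0.05. Most points lie right of 0 in K562+L against K562 and left of 0 in the other panels, where FBL, RCL1, DDX49 and BYSL stand at or right of 0 against K562/IM.

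The labelled libraries were also set against K562, whose libraries the first comparisons used as well. There 44 of the 46 members were lower and all 46 values were below 0, beside 27.8% of the 13307 genes tested called lower and 28.2% called higher. The groups did not overlap in 44 members, beside 63.6% of all genes without overlap and 56.0% called in either direction. The median was -1.39 beside 0.020 over all genes, and 36 members fell by more than 1 on the log2 scale, beside 8.91% of all genes. RCL1 (-0.12, adjusted p = 0.36) and FCF1 (-1.06, adjusted p = 0.081) did not pass. RRP9 had the steepest fall, from the K562 values above to 13.7, 12.9 and 9.35 CPM, a 5.41-fold difference (-2.44, SE 0.19, adjusted p = 5.8e-05). DDX10 stood at 37.3, 35.6 and 40.2 CPM, a log2 fold change against K562 of -1.86 (SE 0.081, adjusted p = 9.2e-06). UTP4 stood at 88.6, 85.0 and 85.4 CPM (-1.68, SE 0.078, adjusted p = 1.0e-05). UTP15 held 103, 103 and 87.7 CPM in K562 (-2.22, SE 0.099, adjusted p = 9.2e-06), and DCAF13 held 160.3, 176 and 171 (-1.96, SE 0.097, adjusted p = 1.1e-05). All of these lay below K562/IM as well as below K562. Without replicate 1 of K562 and replicate 3 of the labelled libraries, 45 members were lower, FCF1 being the one added. That fit called 8027 of 13351 genes tested, in either direction.

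Whether the change with lycorine differed between the lines was put to an interaction test on all 12 libraries, the labelled effect in K562/IM minus the effect in K562. The difference passed in 41 of the 46 members, negative in 40 and positive in FBL, beside 31.7% of the 13995 genes tested called negative and 29.9% called positive. The median difference was -1.21 log2 units beside -0.020 over all genes, and 30 members were past -1, beside 16.3% of all genes. UTP20 had the most negative difference of the members, -2.63 (SE 0.26, adjusted p = 4.5e-06). NOP58, a core protein of box C/D snoRNPs, held 256, 255 and 251 CPM in K562, 372, 419.6 and 409.9 in K562+L, 166, 173 and 161 in K562/IM and 83.1, 71.8 and 75.3 in the labelled libraries. It thus rose 1.58-fold in one line and fell 2.13-fold in the other, with a difference of -1.77 (SE 0.10, adjusted p = 6.5e-08). UTP4 (-1.63, SE 0.080, adjusted p = 1.8e-08), DDX10 (-1.67, SE 0.099, adjusted p = 8.6e-08) and NOP14 (-1.54, SE 0.092, adjusted p = 9.2e-08) had differences of a like size. FBL was positive with 0.74 (SE 0.20, adjusted p = 0.0071), as it fell in K562+L and stood at 249, 253 and 252 CPM in K562/IM and 329, 325 and 236 in the labelled libraries. DDX49, EMG1, FCF1, IMP3 and RCL1 did not pass, with differences of -0.22, -0.25, -0.49, -0.11 and 0.19. PWP2 (-0.37, SE 0.13, adjusted p = 0.033) and RRP7A (-0.45, SE 0.17, adjusted p = 0.035) passed narrowly and lost their call in 6 and in 7 of the 12 fits that left out 1 library. Leaving out replicate 1 of K562 and replicate 3 of the labelled libraries together also gave 41 calls, beside 9318 of 14204 genes tested.

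The 5 tUTP proteins, which bind the precursor first and in human cells are also tied to its transcription, moved together. All 5 rose in K562+L (log2 fold changes of 0.40 to 0.71). The call of UTP15 was lost there with the replicate block and without K562+L replicate 3. All 5 proteins of the complex fell in the labelled libraries against K562/IM (-1.42 to -0.82). HEATR1 (chr1:236549005-236604504, GENCODE 29 on GRCh38) encodes the largest of them. It held 293, 257 and 205 CPM in K562 and 399.9, 358 and 439 in K562+L, a log2 difference of 0.66 (SE 0.14, adjusted p = 0.0086). K562/IM was even, with 202, 190.3 and 204 CPM, and just under the K562 range, with -0.34 (SE 0.13, adjusted p = 0.047), a call that was lost in 8 of 15 other fits. The labelled libraries held 64.5, 63.2 and 92.7 CPM, of which the third was the highest, and all were below K562/IM with -1.41 (SE 0.16, adjusted p = 1.5e-04).

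The UTP-B complex, a long scaffold of WD40 proteins, was less even. WDR3, UTP6, UTP18 and WDR36 rose in K562+L, the call of WDR36 being lost in 7 of 15 other fits, whereas TBL3 had 0.29 (adjusted p = 0.18) and PWP2 had -0.25 (adjusted p = 0.066). PWP2 (chr21:44107290-44131181) held 47.7, 43.6 and 49.3 CPM in K562 and 41.4, 36.3 and 40.3 in K562+L, with the treated libraries all slightly lower. It then stood at 28.6, 24.9 and 26.6 CPM in K562/IM and 18.9, 15.5 and 17.8 in the labelled libraries, each group below the one before. The log2 fold changes were -0.81 (SE 0.087, adjusted p = 1.7e-04) for K562/IM against K562 and -0.60 (SE 0.10, adjusted p = 0.0016) for the labelled libraries against K562/IM. All 6 UTP-B members fell in that last comparison, from -0.38 in UTP6 to -1.74 in WDR3.

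Among the U3 snoRNP proteins, NOP56 (chr20:2652145-2658393), the partner of NOP58, held 328, 336 and 377 CPM in K562 and 348, 367 and 356 in K562+L, which overlap. K562/IM held 199, 197 and 205 CPM, with -0.79 (SE 0.076, adjusted p = 9.7e-05), and the labelled libraries 111, 111 and 96.2, with -0.90 (SE 0.077, adjusted p = 4.3e-05). The 4 proteins of this particle therefore did not share 1 course: RRP9 and NOP58 followed the common order, NOP56 was not called with lycorine in K562, and FBL (chr19:39834458-39846414) had its lowest level in K562/IM. FBL stood at 502 ± 97.3 CPM (SD, n = 3) in K562 and 251 ± 2.23 in K562/IM, which is a log2 difference of -0.999 (SE 0.13, adjusted p = 4.4e-04). SNU13, the RNA-binding protein at the base of the same particle that is no member of the list, had -0.21 (adjusted p = 0.16), -0.76 (adjusted p = 5.6e-04) and 0.08 (adjusted p = 0.47) in the 3 comparisons in that order. Like FBL, it was therefore not called between the labelled libraries and K562/IM.

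NOL6 (chr9:33461441-33473930) and RRP7A belong to the UTP-C group. NOL6 held 174, 194 and 189.8 CPM in K562 and rose to 269, 241 and 242 in K562+L, with 0.43 (SE 0.087, adjusted p = 0.0075). It held 142, 128 and 147 CPM in K562/IM and 77.8, 83.5 and 83.2 in the labelled libraries, with -0.42 (SE 0.084, adjusted p = 0.0036) and -0.75 (SE 0.081, adjusted p = 1.3e-04). Each of the 4 groups was separate from the next. RRP7A had -0.29 (adjusted p = 0.11) in K562+L and fell in K562/IM (-0.86) and again in the labelled libraries (-0.71).

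MPHOSPH10, IMP3 and IMP4 form the MPP10 complex, which holds the U3 RNA on the precursor, and UTP3 binds with them. MPHOSPH10 (chr2:71130314-71150101) held 127, 124 and 116 CPM in K562 and 129.6, 148 and 148 in K562+L. These groups did not overlap, but the gap was small and the log2 fold change of 0.21 (SE 0.090, adjusted p = 0.10) was not called. K562/IM held 81.8, 80.9 and 77.8 CPM, with -0.61 (SE 0.070, adjusted p = 2.4e-04), and the labelled libraries 53.8, 56.6 and 54.8, with -0.52 (SE 0.062, adjusted p = 2.2e-04). In K562+L only UTP3 of the 4 rose (0.35), IMP3 and IMP4 having -0.05 and -0.22 (adjusted p = 0.80 and 0.16). The call of UTP3 was lost with the replicate block, without K562 replicate 2 and without replicate 2 or replicate 3 of K562+L. All 4 fell in K562/IM, and all but IMP3 fell further in the labelled libraries.

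BMS1 (chr10:42782801-42834937), a GTPase, held 175, 163 and 167 CPM in K562, 205, 207 and 226 in K562+L, 134, 134 and 145 in K562/IM and 77.0, 77.0 and 77.4 in the labelled libraries. All groups were separate, with log2 fold changes of 0.34 (adjusted p = 0.014), -0.29 (adjusted p = 0.0096) and, against K562/IM, -0.82 (adjusted p = 3.4e-05). The K562+L call was lost with the replicate block, without K562 replicate 2 and without K562+L replicate 3. The call in K562/IM against K562 was lost without K562/IM replicate 1. BMS1 has 17 annotated pseudogene copies, so that part of its reads may have been shared with them. Its partner RCL1 (chr9:4792869-4885917) held 64.2, 76.6 and 69.4 CPM in K562 and 80.5, 83.7 and 80.9 in K562+L, which was not called (0.22, adjusted p = 0.093). RCL1 fell in K562/IM (-0.50) and overlapped K562 in the labelled libraries, where BMS1 was at its lowest.

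**Figure D3:**
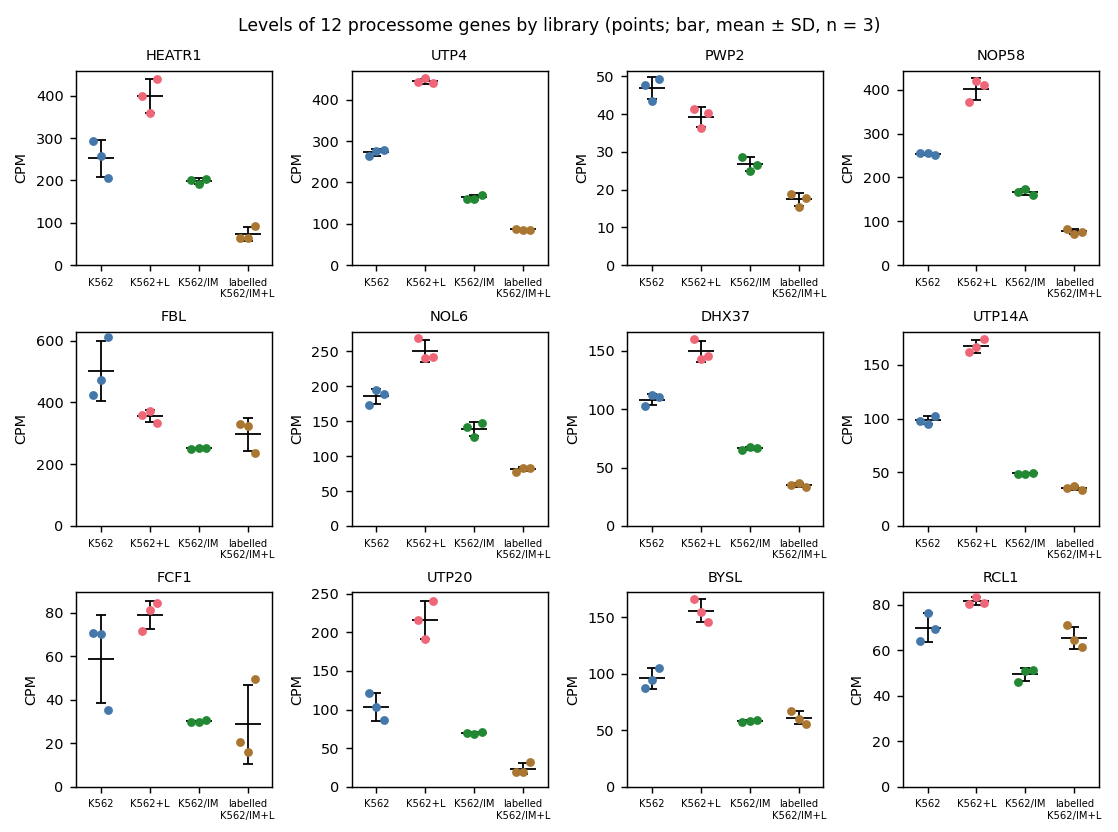
CPM (vertical axes, each from 0) of 12 processome genes in the 4 groups, with 1 point per library and bars for the mean ± SD (n = 3). Most genes step down from K562+L over K562 and K562/IM to the labelled libraries, whereas FBL is highest in K562, RCL1 and BYSL do not lie below K562/IM in the labelled libraries, and FCF1 has 1 low K562 library and 1 high labelled library.

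Helicases drive the remodelling of the particle. DHX37 (chr12:124946825-124989122), which unwinds the U3 RNA from the precursor at the end, held 103, 112 and 110.2 CPM in K562 and 160.1, 143 and 145 in K562+L, with 0.47 (SE 0.086, adjusted p = 0.0054). K562/IM held 65.1, 67.6 and 67.1 CPM, with -0.70 (SE 0.069, adjusted p = 1.1e-04), and the labelled libraries 34.8, 36.5 and 33.0, with -0.91 (SE 0.067, adjusted p = 2.0e-05). Its activator UTP14A followed the same steps, 0.77, -1.01 and -0.46. DDX10, DDX52 and the helicase-like UTP25 also rose in K562+L (0.62 to 0.70), and DDX49 had 0.25 (adjusted p = 0.23). DDX49 held 50.8, 47.6 and 51.8 CPM in K562/IM and 52.5, 55.8 and 44.8 in the labelled libraries, 2 ranges that overlap, and the sign of its difference turned when GC content was corrected for.

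FCF1 (chr14:74713144-74738620), the PIN-domain nuclease that cuts the precursor, was the least even member. It held 70.7, 70.3 and 35.4 CPM in K562 and 20.5, 16.0 and 49.5 in the labelled libraries, so that 1 library in each group was far from the other 2. The coefficient of variation was 34.4% in K562 and 63.3% in the labelled libraries, beside medians over members of 8.29% and 8.21%. K562+L (71.6, 81.2 and 84.4 CPM) and K562/IM (29.9, 29.8 and 30.6) were even, and K562/IM was below K562 with -0.97 (SE 0.24, adjusted p = 0.0097). FCF1 has 10 annotated pseudogene copies. UTP23, a related PIN-domain protein, rose in K562+L (0.52) and fell in K562/IM (-0.53) and in the labelled libraries (-0.26), a call that was lost in 6 of 15 other fits and whose sign turned in the one that corrected for GC content.

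NAT10 (chr11:34105602-34147670) acetylates the small-subunit RNA. Its K562 libraries lay close together, with 201, 198 and 199 CPM, and K562+L held 249.7, 225 and 241, a small rise of 0.26 (SE 0.077, adjusted p = 0.032) that was lost in 6 of 15 other fits. K562/IM held 149, 145 and 151 CPM, with -0.43 (SE 0.062, adjusted p = 7.7e-04), and the labelled libraries 78.3, 82.5 and 87.5, with -0.82 (SE 0.072, adjusted p = 4.8e-05). The methyltransferase EMG1 had -0.16 in K562+L (adjusted p = 0.31) and fell by less than NAT10 in the labelled libraries (-0.38).

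The large repeat proteins had the highest class median with lycorine in K562, 0.80. PDCD11 (chr10:103396626-103446292), the relative of yeast Rrp5 that serves both ribosomal subunits, held 219, 210.3 and 199 CPM in K562 and 328, 292 and 321 in K562+L, with 0.58 (SE 0.083, adjusted p = 0.0020). K562/IM held 146, 134 and 154 CPM, with -0.54 (SE 0.080, adjusted p = 8.5e-04), and the labelled libraries 62.9, 58.3 and 72.6, with -1.14 (SE 0.11, adjusted p = 6.2e-05). RRP12, an export factor, rose by 0.80 and fell in the other comparisons (-0.93 and -0.68). UTP20 stood at 69.6, 68.0 and 70.9 CPM in K562/IM and 19.6, 19.3 and 31.5 in the labelled libraries (-1.54, SE 0.19, adjusted p = 2.9e-04). NOC4L, the partner of NOP14, rose in K562+L as well (0.81, SE 0.18).

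Of the 8 remaining assembly factors, all but UTP11 rose in K562+L and all but KRR1 fell in K562/IM, beside 18.2% of all genes higher and 27.1% lower. The K562+L calls of ESF1, WDR46, DCAF13 and NOL10 were each lost in 1 or more of the fits that left out a library. BYSL (chr6:41921188-41933046), bystin, which stays with the particle on its way out of the nucleus, held 87.8, 94.5 and 106 CPM in K562 and 167, 155 and 146 in K562+L, with 0.70 (SE 0.099, adjusted p = 0.0020). K562/IM held 57.7, 58.1 and 58.8 CPM, with -0.72 (SE 0.084, adjusted p = 2.6e-04), and the labelled libraries held 67.3, 60.4 and 55.8, which overlaps K562/IM. AATF was near K562/IM there too, with 148, 139.8 and 147 CPM in K562/IM and 122, 122 and 113 in the labelled libraries (-0.26, SE 0.067, adjusted p = 0.010). ESF1, NOL10 and DCAF13 were at the other end, with -1.08, -0.97 and -1.28 against K562/IM.

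Other genes of ribosome production were set beside the processome. In K562+L against K562, 6 of 15 other small-subunit factors rose and 1 fell (median 0.19), 14 of 33 large-subunit assembly factors rose and the rest did not pass (0.29), and 5 of 14 RNA polymerase I subunits and factors rose and 2 fell (0.22). Of all genes, 18.2% were higher and 19.0% lower there, so that the shares called lower in these lists lay under that of all genes. The 78 cytosolic ribosomal proteins, which the finished subunits are built from, went down instead, with 67 lower, the other 11 not passing and a median of -0.59. In K562/IM all 5 lists were low, with 14, 31, 10 and 78 genes of the 4 other lists lower in that order, the rest not passing, and medians of -0.64, -0.70, -0.38 and -0.83. Of all genes, 27.1% were lower there. In the labelled libraries against K562/IM 11 of the 15 other small-subunit factors were lower and 1 higher (median -0.36), and 29 of the 33 large-subunit factors were lower (-0.78). RNA polymerase I genes were mixed there, with 6 of 14 lower and 4 higher (-0.38), shares near the 33.6% and 33.2% of all genes, while all 78 ribosomal protein genes were higher with a median of 1.18. Against K562, 10 of the 78 ribosomal protein genes were higher, 1 was lower and 67 did not pass (median 0.31), a share called higher that lies under the 28.2% of all genes. The medians of processome genes and of ribosomal protein genes were thus on opposite sides of 0 in both lycorine comparisons. They were on the same side between the lines without lycorine. Single members departed from this, as 6 of the 46 were below 0 in K562+L and 4 were above 0 against K562/IM. These lists were described by counts and medians, with no test of the difference between lists.

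**Figure D4:**
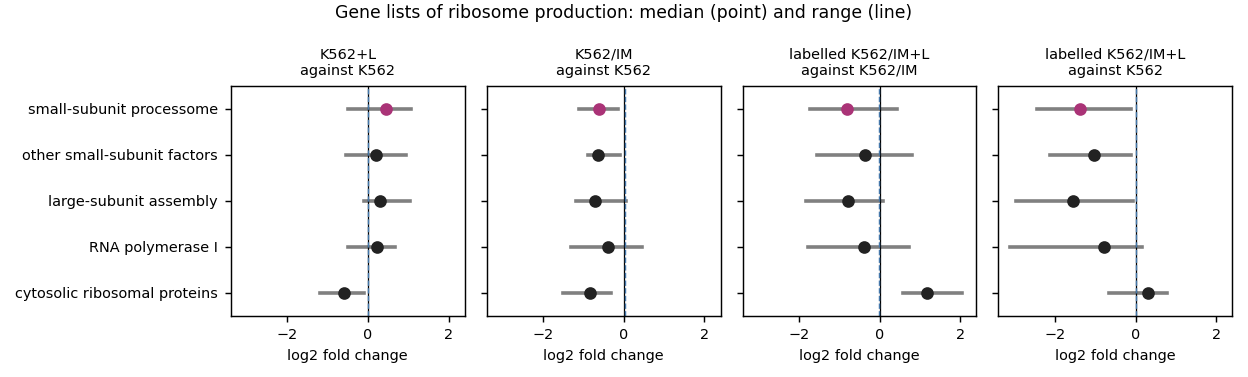
Median (point) and range (line) of the log2 fold change (horizontal axis) for the 46 processome genes and 4 other lists of ribosome production (vertical axis) in 4 comparisons, with the dashed line at the median of all genes tested. The medians of the processome and of the ribosomal proteins lie on opposite sides of 0 in both lycorine comparisons. They lie on the same side in K562/IM against K562.

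MYC held 123, 152 and 149 CPM in K562 and 239, 247 and 221 in K562+L, a log2 difference of 0.74 (SE 0.10, adjusted p = 0.0019). It held 129.7, 122 and 136 CPM in K562/IM, which overlaps K562 (-0.13, SE 0.097, adjusted p = 0.30), and 61.7, 57.3 and 51.5 in the labelled libraries, below every other library (-1.16, SE 0.087, adjusted p = 2.2e-05 against K562/IM). The processome genes were lower in K562/IM by a median of -0.62 where MYC was not called. A part of MYC in any of these differences was not tested. NOL11, a tUTP subunit outside the list, kept to the course of its complex with 0.40, -0.48 and -0.84 in the 3 comparisons, all called.

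Members were also described by whether the promoter window held an E-box. In K562+L against K562 the median log2 fold change was 0.46 for the 19 members with the letters and 0.40 for the 19 without. In K562/IM against K562 the medians were -0.57 and -0.62, and in the labelled libraries against K562/IM both were -0.82. The widest gap was in the labelled libraries against K562, with -1.43 and -1.26. Over all tested genes with a window, the medians in K562+L were 0.036 for the 1060 genes with an E-box and 0.0089 for the 9316 without, in K562/IM -0.096 and 0.048, and in the labelled libraries against K562 -0.12 and 0.015. In the members the E-box mostly began near the start: 34.2% of their windows had one that began in the first 50 bases after the start, against 1.18% of tested genes and 0.912% of all windows. FBL and RCL1, whose values left the common course, carry one there as well.

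**Figure D5:**
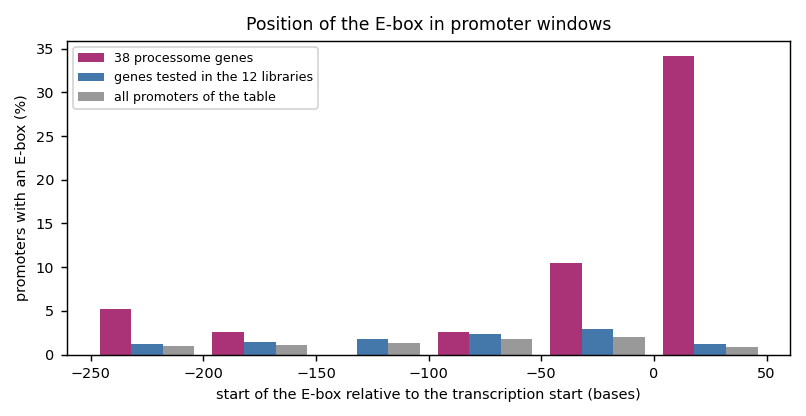
Share of promoter windows (vertical axis, percent) with an E-box that begins in each bin of 50 bases relative to the transcription start (horizontal axis, bases), for 38 processome genes, for genes tested in the 12 libraries and for all windows of the table. The processome genes reach 34.2% in the bin after the start, where tested genes have 1.18% and all windows 0.912%.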

How the data were processed

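Total RNA of the cells was enriched for poly(A) transcripts and sequenced in 12 libraries. The authors deposited 1 table of counts per gene, in whole numbers and not normalized. The submitters' processing notes list FastQC, STAR, StringTie and DESeq2 and the build hg38, with no role or order; the counting program, its strand setting and the annotation are not given in the sources used here. Library totals ran from 75093844 to 107344598 counts, so that counting error is small beside the spread between replicates. Among values of 1 to 25 counts, 67.9% were a multiple of 4 or 1 above one, where evenly used numbers would give 52.0%; dividing all counts by 4 changed no count of members called.

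Groups follow the labels. Each comparison was a fit of its 6 libraries in edgeR 4.0.16 (R 4.3.3, limma 3.58.1): genes were kept by filterByExpr with a minimum count of 10, scaled by TMM and tested with the quasi-likelihood F test, with Benjamini-Hochberg adjustment over all genes kept. A gene is called at an adjusted p under 0.05, and a second rule adds an absolute log2 fold change over 1. The interaction was fitted over all 12 libraries. An SE is the log2 fold change divided by the square root of F. CPM per kb used the union of exons in GENCODE 29, and genome positions are those of its gene models. Scripts were tested on simulated data. Every pair of replicates differed by more than sampling noise (chi-square per degree of freedom of 32.0 to 198). At these library totals differences in library preparation alone can give that, so it cannot tell separate cultures from repeat libraries. Each library was counted as 1 sample.

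The members, the other lists and the marker lists were chosen with earlier results of these data known. Values per library are given for 12 members picked to stand for their classes, and for up to 4 members with the smallest p in each direction and comparison. UTP20, RRP9 and DDX49 were added after their values were seen, as were RCL1 and FCF1 beyond that rule. Replicate numbers are not said to mark a shared culture or day, and same-numbered libraries did not deviate together, so no block was used. The alternatives were other normalizations and filters, DESeq2 1.42.0, 1 fit over 12 libraries, a replicate block and leaving out each library. Offsets for GC content and leaving out 2 libraries together were chosen after seeing the data. Promoter windows came from RefSeq (GRCh38.p14) and were searched on both strands for CACGTG, which reads the same on both; no window was used for 8 members: NOP58, NOL10, MPHOSPH10, DDX49, RRP12, DCAF13, UTP23 and DDX52.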

Additional observations from a re-analysis of the deposited data

Results flagged for a closer look

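The effect of lycorine as labelled differed between the lines, by the interaction test over 12 libraries, in 41 of the 46 processome genes. The same test called 61.7% of the 13995 genes tested, in either direction. The difference, K562/IM minus K562 on the log2 scale, was -1.77 for NOP58, -1.67 for DDX10, -1.63 for UTP4 and -1.54 for NOP14, and 0.74 for FBL. In the first 4 genes all 3 treated libraries lay above the untreated ones in K562 and all 3 labelled libraries lay below K562/IM. In FBL the treated libraries lay below the untreated ones in K562, and the labelled libraries overlapped K562/IM. ABCB1 and the sum of the K562 markers differ in the same libraries by more than any member, and their part in these differences was not tested.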

How the results depend on the processing

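Counts of members called stayed within 1.5 times the reported ones in all alternatives run at the same threshold, and DESeq2 and counts divided by 4 gave 34, 43, 41, 44 and 41 again, in the order of the 4 comparisons and the interaction. With an absolute log2 fold change over 1 as well, 1, 2 and 12 members were called in K562+L, in K562/IM and in the labelled libraries against K562/IM. Leaving out 1 library at a time gave 25 to 36, 39 to 46, 39 to 44, 44 to 45 and 39 to 41 members, and medians of 0.41 to 0.46, -0.64 to -0.59, -0.83 to -0.79 and -1.43 to -1.37. The calls over all genes moved as well, from 2871 to 5823, 6316 to 8834, 8101 to 10181, 6167 to 7441 and 8043 to 8906 in the same order. The range of medians for the labelled libraries against K562, -1.43 to -1.37, also takes in the fit that left out 2 libraries together. Upper-quartile normalization moved the median of all genes by up to 0.15. It gave member medians of -0.57 in K562/IM, -0.76 against K562/IM and -1.24 for the labelled libraries against K562. In these comparisons the median of all genes moved by 0.048, 0.057 and 0.15, in that order. The fit over 12 libraries gave -0.84 against K562/IM, and GC offsets gave 0.39 in K562+L and -0.79 against K562/IM. The cause of these shifts was not tested.

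NOP56, FCF1 and BYSL changed sign, each in a comparison where it was not called. NOP56 in K562+L was -0.0035 with upper-quartile normalization and ranged from -0.0076 (without K562 replicate 1) to 0.10 when 1 library was left out. Against K562/IM, FCF1 was 0.012 with upper-quartile normalization, 0.12 with GC offsets, and 0.15, 0.25 and -0.69 without the labelled replicate 1, 2 and 3, while BYSL was -0.097 with GC offsets. GC offsets also turned the sign of DDX49 and of UTP23 against K562/IM, where DDX49 was then called lower and the call of UTP23 was lost.

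Same-numbered libraries did not pair: their deviations correlated at -0.227 to 0.150 over 18 pairs, 2 of them over 0.1. With the replicate block 26, 42, 40, 44 and 40 members were called, and the losses in K562+L were UTP15, WDR36, RRP9, UTP3, BMS1, NAT10, WDR46 and DCAF13. Over all genes the block gave 3126, 7138, 8868, 5700 and 8319 calls, against 4821, 7661, 9169, 7446 and 8628 without it. With 3 libraries a group, small changes such as that of HEATR1 in K562/IM lie at the limit of what could be called.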

Other observations

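Across the 46 members, the difference between replicates 1 and 3 of K562 and that between replicate 3 and the mean of the other 2 labelled libraries had a Pearson r of 0.91 (Spearman 0.90), although no library is in both. Over the 12331 tested genes above 0 in every library the same r was 0.45 (Spearman 0.65), so that this relation was not limited to the processome. The first difference had r = -0.80 with the GC percent of the transcript and 0.51 with its length, and the second had -0.60 and 0.54. These are descriptions over genes that share the same libraries and are not independent. The fold changes themselves were less tied to these properties, with r from -0.48 to 0.42 over the comparisons and the interaction, the lowest for transcript length and the highest for GC percent in the interaction.

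Other promoter letters were counted in the same 38 windows. The ETS core CCGGAAG was in 15 of them (39.5%), against 18.1% of tested genes, the NRF1 motif in 9 (23.7%), against 10.9%, and TATAAA in 2 (5.26%), against 6.44%. Both strands were searched, and each motif was counted on its own.

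BMS1, FCF1, NOP56, DCAF13, IMP3, DDX10 and KRR1 have annotated pseudogenes, from 1 for KRR1 to 17 for BMS1, and how reads that match several places were counted is not given in the sources used here.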
